A study of Mus musculus with 14 samples.

Results

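The genes described here are 10 members of the oxidative stress response that is governed by the transcription factor NRF2: Nfe2l2, Keap1, Nqo1, Hmox1, Gclc, Gclm, Txnrd1, Srxn1, Prdx1 and Gpx4. They were taken by symbol from a table of read counts with 55228 rows, and all 10 were among the 11757 genes with enough counts to be tested. The RNA came from cultured mouse epidermal cells of the genotype Lrig1CreER/Rosa-TdTomato, in which Lrig1, active in progenitors of the upper hair follicle, drives an inducible Cre that switches on a red fluorescent reporter. All libraries shared this genotype, had no treatment, came from tail epidermis at the time that the labels write as 8w pw1, and were sorted as Sca1+ cells (a surface antigen) and cultured for 1 week in keratinocyte medium. The control group (8 libraries) came from a region that the labels call non-memory, and the distal group (6 libraries) from a region called distal memory in a study of tissue memory after injury. Animal age, and whether libraries come from separate animals or cultures, is not given in the labels, so p-values reflect library-to-library spread alone, and that spread may be technical.

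NRF2, the product of Nfe2l2, is held in the cytoplasm and sent for degradation by KEAP1, a thiol-rich adaptor of a cullin 3 ubiquitin ligase. Oxidants and electrophiles modify KEAP1 cysteines, NRF2 accumulates, pairs with small MAF proteins and binds antioxidant response elements in target genes. In epidermis this pathway is known for protection against ultraviolet light and reactive chemicals, and for a part in cornification. Several of its targets feed 2 thiol systems, glutathione and thioredoxin, and GPX4 uses glutathione to reduce lipid peroxides in membranes.

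Total counts were 4515646 to 7458872 in control and 2137934 to 4513518 in distal libraries, so depth did not overlap between the regions. The libraries form 4 sets by their descriptions: CTRL1 (control replicates 1 to 6), CTRL2 (control replicates 7 and 8), MEM1 (distal replicates 1 and 2) and MEM2 (distal replicates 3 to 6). No set holds both regions, so set and region cannot be told apart. All 10 keratinocyte markers had counts in both regions, with summed levels of 9410 to 13300 CPM (counts scaled to a common library total) in control and 13300 to 21200 CPM in distal libraries. All 4 upper hair follicle markers had counts, summing to 1540 to 3130 CPM and 1750 to 2270 CPM. The summed level of 8 fibroblast markers was 0.535 to 245 CPM in control and 2.3 to 93.5 CPM in distal libraries (7 of 8 with a count in each region, Lum at 0). The summed level of 8 immune markers was at most 2.05 CPM, with Cd3e, Cd207 and Tyrobp at 0 in every library. The 6 melanocyte markers summed to 15.4 to 47.5 CPM in control and 12.7 to 41.0 CPM in distal libraries (Dct at 0), and the 5 endothelial markers to 1.89 to 9.86 CPM and 3.87 to 9.51 CPM (Cdh5 and Emcn at 0). In pooled RNA, fewer cells of a type and less RNA per cell cannot be told apart, and the part of these marker levels in the results below was not tested. Fold changes across all genes followed the GC content of the transcripts: the median log2 fold change was -0.89 in the lowest of 5 equal bins of GC content and 1.1 in the highest. Fold changes of the 10 genes are therefore also given with every library's trend on GC content and transcript length removed, and with counts summed into the 4 sets.

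The antioxidant response element is the sequence that NRF2 binds in target genes. Its core was searched as TGACNNNGC or TGAGNNNGC on both strands. RefSeq promoter windows (GRCm38.p6, 250 bases before to 50 after a start) were at hand for 8 of the 10 genes, in 13 windows; Hmox1 and Gclc had none. A core was found for 5 of the 8 (Nfe2l2, Gclm, Txnrd1, Srxn1 and Prdx1). Of all 27025 genes with a window 30.8% held at least 1, so the match is a common one. Keap1, Nqo1 and Gpx4 held no match in their windows, and sequence outside the windows was not searched. For these 5 genes, 1 upstream match each is printed on the gene's strand, 5′ to 3′, with the core in capitals.
Txnrd1: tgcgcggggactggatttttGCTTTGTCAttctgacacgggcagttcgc
Srxn1: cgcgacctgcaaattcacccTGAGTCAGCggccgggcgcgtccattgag
Prdx1: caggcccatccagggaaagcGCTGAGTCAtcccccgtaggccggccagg
Gclm: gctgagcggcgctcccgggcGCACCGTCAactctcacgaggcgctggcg
Nfe2l2: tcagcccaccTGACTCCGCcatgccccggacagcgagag
The Txnrd1 stretch (chr10:82859094-82859142) precedes an internal start and lies in an intron of the longer transcripts. The others lie upstream of the annotated gene: Srxn1 at chr2:152105459-152105507, Prdx1 at chr4:116685446-116685494, Gclm at chr3:122245403-122245451 (all on the plus strand) and Nfe2l2 at chr2:75704875-75704913 (minus strand). In Srxn1 and Prdx1 the printed core overlaps an AP-1 site, searched as TGACTCA or TGAGTCA, which 5.95% of all genes with a window hold. A match is a run of letters and not a measured binding site. In the results that follow, Txnrd1 and Prdx1 fell, Srxn1 rose, and Gclm and Nfe2l2 did not pass the test. With the GC and length trend removed, only Txnrd1 (-1.04) of these 5 genes passed. Prdx1 was then at -0.10 and Srxn1 at -0.16.

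The 10 genes did not move as 1 group. Gpx4 rose 3.55-fold and Srxn1 1.89-fold in distal cells (ratios of mean CPM), Txnrd1, Prdx1 and Gclc fell, and Nfe2l2, Keap1, Nqo1, Hmox1 and Gclm did not pass the test. With edgeR's quasi-likelihood test and an adjusted p under 0.05 over all tested genes, 2 of 10 were called higher, where 24.3% of all tested genes were, and 3 of 10 were called lower, where 24.1% were. In all, 5 of 10 passed against 48.3% of all genes, a share near the background. Their median log2 fold change was -0.42, against -0.16 over all tested genes. With the trend removed 1 was called higher and 2 lower, so 3 of 10 in either direction (background 10.4%, 8.57% and 18.9%). From counts summed per set 2 were called higher and 1 lower (background 18.8%, 11.7% and 30.5% in either direction), and with both changes none was called higher and 1 lower (background 1.07%, 1.61% and 2.69%). For 3 of the 10 genes (Gpx4, Srxn1 and Txnrd1) no library of a region lay within the range of the other, which was so for 18.3% of all tested genes (12.7% higher and 5.65% lower).

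**Figure D1:**
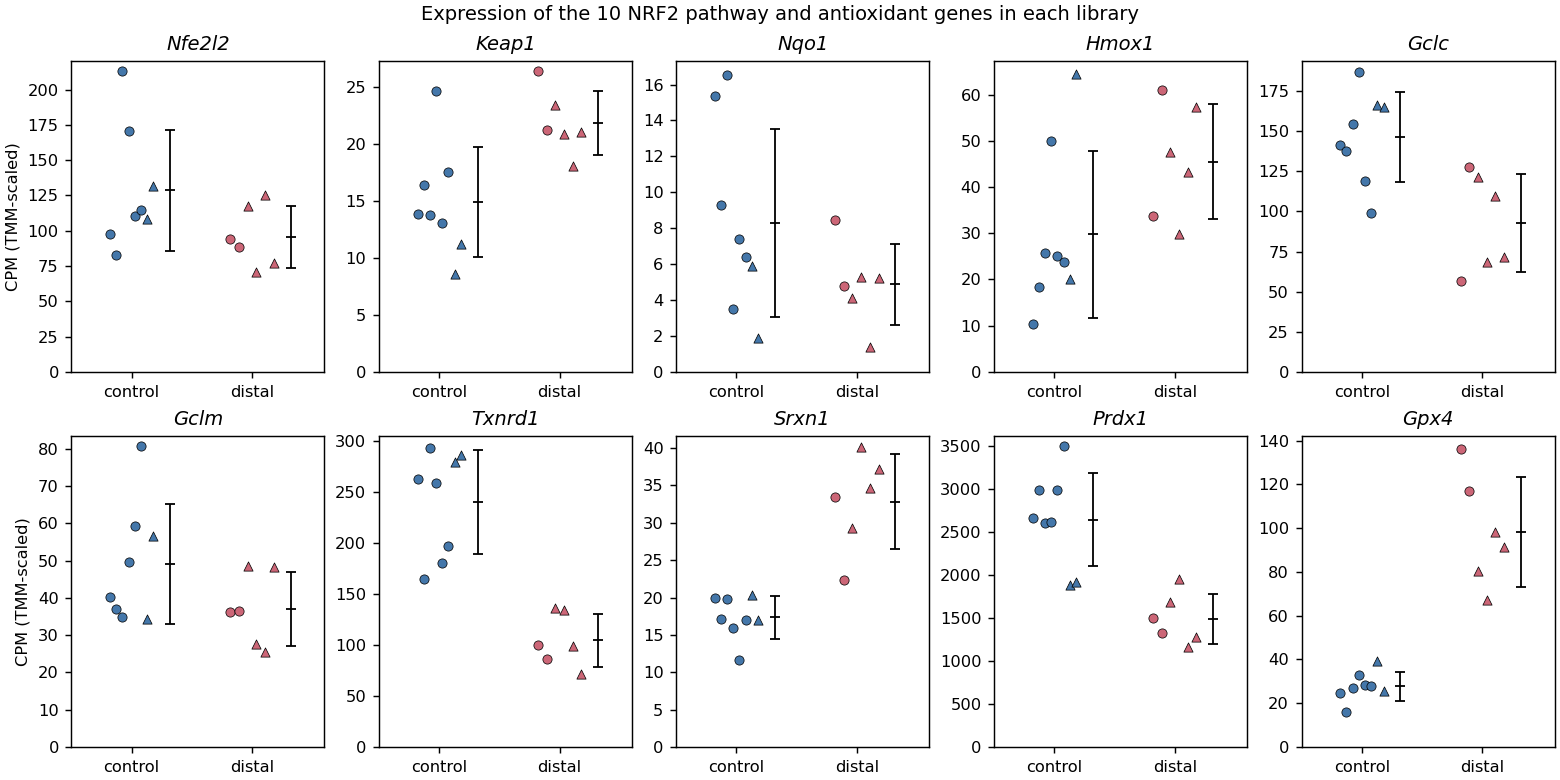
Level of each of the 10 genes in every library in CPM with TMM-scaled totals, each panel on its own linear axis from 0. Points are libraries (circles: sets CTRL1 and MEM1, triangles: CTRL2 and MEM2), and the bar at the right of each group is the mean ± SD (n = 8 control, n = 6 distal). Gpx4, Srxn1 and Txnrd1 separate the regions fully, and the other 7 genes overlap.

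The regulators were described first. Nfe2l2 (chromosome 2, 75675513 to 75704641, GRCm38, minus strand) stood at 82.9, 113 and 213 CPM (lowest, median and highest) in control and at 70.5, 91.2 and 126 CPM in distal libraries. The distal range was inside or just below the control range, with 2 of 6 distal libraries under every control library. Its mean was 129 ± 42.9 CPM (SD, 8 libraries) in control and 95.5 ± 21.9 CPM (SD, 6 libraries) in distal cells, a log2 fold change of -0.43 ± 0.21 (SE) that did not pass (edgeR adjusted p = 0.094). Without control replicate 2 it passed at -0.50 (edgeR adjusted p = 0.049), and with the trend removed its sign turned to 0.26 ± 0.20 (SE; adjusted p = 0.39 with edgeR). From counts summed per set Nfe2l2 was at -0.27 (edgeR adjusted p = 0.43).

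Keap1, the inhibitor (chromosome 9, 21229730 to 21239361, minus strand), stood at 8.56, 13.8 and 24.6 CPM in control and at 18.1, 21.1 and 26.4 CPM in distal libraries. Control replicate 4 was the only control library above the distal minimum. The means were 14.9 ± 4.82 CPM (SD, 8 libraries) and 21.8 ± 2.79 CPM (SD, 6 libraries), and the log2 fold change of 0.55 ± 0.23 (SE) fell short of the threshold (edgeR adjusted p = 0.055). The call depended on the scaling, the test, the filter and single libraries. With all libraries Keap1 passed under upper-quartile scaling (0.72, edgeR adjusted p = 0.019), with limma-voom (0.60, adjusted p = 0.039), with at least 10 counts asked in every library (0.61, edgeR adjusted p = 0.034) and with counts thinned to the smallest total (0.72, edgeR adjusted p = 0.035). From counts summed per set it was at 0.91 and missed the threshold (edgeR adjusted p = 0.072). It passed in 8 of 14 fits that left 1 library out, with log2 fold changes of 0.53 to 0.71 over all 14. Without CTRL1, which holds control replicate 4, it was at 1.17 and passed (edgeR adjusted p = 0.035). After removal of the GC and length trend Keap1 was at -0.36 ± 0.24 (SE; adjusted p = 0.34 with edgeR), the opposite sign. Keap1 has 59.1% GC and Nfe2l2 45.0%, which places them in the highest and the next-to-lowest of these bins. An antisense gene, Gm16754, overlaps Keap1 and had 27 counts over all libraries. The sources used here do not say whether counting used strand.

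At the RNA level alone, the balance of inhibitor to target was read as the log2 ratio of Keap1 to Nfe2l2 counts within each library. This ratio (0.5 added to each count) needs no scaling between libraries. It was -3.95, -2.94 and -2.33 (lowest, median and highest) in control and -2.79, -1.96 and -1.75 in distal libraries. In 5 of 6 distal libraries it lay above every control library. The mean rose from -3.11 ± 0.55 (SD, n = 8) to -2.10 ± 0.39 (SD, n = 6), a difference of 1.01 (two-sided exact permutation over 3003 regroupings, p = 0.0037, adjusted p = 0.0073 over 2 ratios). Once the trend was removed, the difference was -0.61 and did not pass (exact permutation, adjusted p = 0.065), so its direction depended on how GC content was treated. Within sets of summed counts the ratio was -3.04 and -3.60 in CTRL1 and CTRL2, and -1.93 and -2.23 in MEM1 and MEM2.

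**Figure D2:**
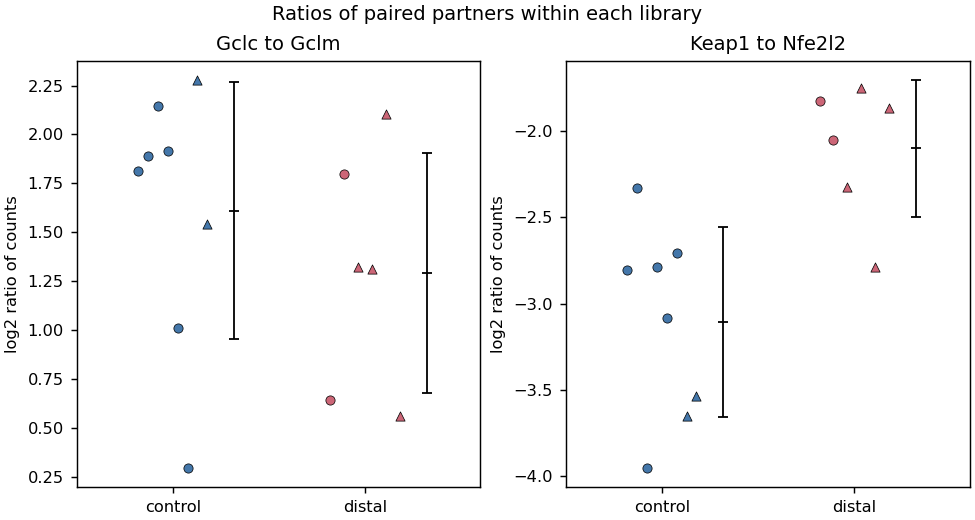
Log2 ratios of counts within each library for the 2 subunits of glutamate-cysteine ligase (left) and for Keap1 and Nfe2l2 (right), without removal of the GC trend. Points are libraries (circles: CTRL1 and MEM1, triangles: CTRL2 and MEM2) and bars are mean ± SD (n = 8 and 6). The Keap1 to Nfe2l2 ratio was higher in distal cells by 1.01, a direction that turned with the trend removed, and the Gclc to Gclm ratio overlapped between the regions.

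Glutathione synthesis starts with glutamate-cysteine ligase, made of a catalytic subunit (Gclc) and a modifier subunit (Gclm). Gclc (chromosome 9, 77754535 to 77794485, plus strand) stood at 99.1, 148 and 187 CPM in control and at 56.6, 90.6 and 128 CPM in distal libraries. Of the distal libraries 3 (replicates 1, 4 and 6) lay below every control library and the other 3 lay within the control range. Its mean fell from 146 ± 28.2 CPM (SD, 8 libraries) to 92.6 ± 30.6 CPM (SD, 6 libraries), a log2 fold change of -0.66 ± 0.20 (SE; adjusted p = 0.011 with edgeR). The fall was as large with the trend removed, at -0.71 ± 0.21 (SE; adjusted p = 0.021 with edgeR), and Gclc has 50.4% GC, in the middle bin. The call depended on those 3 low libraries: without distal replicate 1, 4 or 6 the log2 fold change was -0.46, -0.47 or -0.50 and did not pass (edgeR adjusted p = 0.065, 0.054 and 0.058). From counts summed per set it was at -0.57, short of the threshold (edgeR adjusted p = 0.096). Left without CTRL1, CTRL2 or MEM2 it was at -0.81, -0.50 and -0.67, which did not pass either (edgeR adjusted p = 0.083, 0.058 and 0.09).

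Gclm (chromosome 3, 122245557 to 122270732, plus strand) stood at 34.3, 44.9 and 80.7 CPM in control and at 25.4, 36.4 and 48.6 CPM in distal libraries, with 2 of 6 distal libraries below the control range. Its means were 49.1 ± 16.0 CPM (SD, 8 libraries) and 37.1 ± 9.89 CPM (SD, 6 libraries), and the log2 fold change of -0.40 ± 0.23 (SE) did not pass (edgeR adjusted p = 0.15). Removal of the trend left -0.0052 (edgeR adjusted p = 0.99), and counts summed per set gave -0.20 (edgeR adjusted p = 0.61). The log2 ratio of Gclc to Gclm averaged 1.61 ± 0.66 (SD, n = 8) in control and 1.29 ± 0.61 (SD, n = 6) in distal libraries, with every distal value inside the control range of 0.30 to 2.28. The difference of -0.32 did not pass (exact permutation, p = 0.37), nor did the -0.76 with the trend removed (exact permutation, adjusted p = 0.065). So the call for Gclc and the lack of one for Gclm do not show that the 2 subunits changed differently.

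In the thioredoxin arm Txnrd1 and Prdx1 fell and Srxn1 rose, and of these only the fall of Txnrd1 passed with the trend removed. Txnrd1 encodes cytosolic thioredoxin reductase, a selenoprotein that recharges thioredoxin (chromosome 10, 82833951 to 82897712, plus strand). It stood at 165, 261 and 294 CPM in control and at 71.0, 99.6 and 137 CPM in distal libraries, and every distal library lay below every control library. The mean fell from 240.2 ± 51.4 CPM (SD, 8 libraries) to 105 ± 26.02 CPM (SD, 6 libraries), a log2 fold change of -1.20 ± 0.18 (SE; adjusted p = 5.6e-05 with edgeR). Txnrd1 has 50.1% GC, near the middle of tested genes, and with the trend removed it was at -1.04 ± 0.19 (SE; adjusted p = 0.001 with edgeR). With counts summed per set it was at -1.13 ± 0.26 (SE; adjusted p = 0.0069 with edgeR), and with both changes at -1.12 (edgeR adjusted p = 0.032). Leaving out any 1 library gave -1.26 to -1.02, all past the threshold. In the 10 libraries over 4000000 counts, which hold only 2 distal libraries, it was at -0.81 and did not pass (edgeR adjusted p = 0.056).

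Prdx1, a peroxiredoxin that reduces hydrogen peroxide with electrons from thioredoxin (chromosome 4, 116685544 to 116700822, plus strand), was the most abundant of the 10. It stood at 1886, 2639 and 3501 CPM in control and at 1164, 1414 and 1958 CPM in distal libraries. Only distal replicate 4 reached into the control range, which it did against the 2 libraries of CTRL2. The mean fell from 2647 ± 545 CPM (SD, 8 libraries) to 1487 ± 294 CPM (SD, 6 libraries), a log2 fold change of -0.83 ± 0.17 (SE; adjusted p = 0.0006 with edgeR). Prdx1 has the lowest GC content of the 10, at 42.9%, and with the trend removed it was at -0.10 ± 0.15 (SE) and did not pass (edgeR adjusted p = 0.69). The control sets stood apart, at 2894 CPM in CTRL1 and 1903 CPM in CTRL2. From sums per set Prdx1 was at -0.52 (edgeR adjusted p = 0.22), and in the libraries over 4000000 counts at -0.52 (edgeR adjusted p = 0.18). Without CTRL1 it stood at -0.33, short of the threshold (edgeR adjusted p = 0.32).

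Srxn1 encodes sulfiredoxin, which repairs over-oxidised peroxiredoxins (chromosome 2, 152105516 to 152111376, plus strand). It stood at 11.6, 17.1 and 20.3 CPM in control and at 22.3, 34.1 and 40.2 CPM in distal libraries, so the lowest distal value exceeded the highest control value. The mean rose from 17.4 ± 2.86 CPM (SD, 8 libraries) to 32.8 ± 6.31 CPM (SD, 6 libraries), a log2 fold change of 0.92 ± 0.19 (SE; adjusted p = 0.00074 with edgeR). It has the highest GC content of the 10, at 60.3%, above 97.2% of tested genes. After removal of that trend it was at -0.16 ± 0.21 (SE; adjusted p = 0.65 with edgeR), a sign opposite to the plain fit. From counts summed per set it was at 0.98 and passed (edgeR adjusted p = 0.029). Left without CTRL1 it was at 0.84, and without MEM2 at 0.69, short of the threshold in both (edgeR adjusted p = 0.078 and 0.092).

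Gpx4, a selenoprotein that reduces lipid hydroperoxides in membranes and is known as a guard against ferroptosis, rose most (chromosome 10, 80047166 to 80056439, plus strand). It stood at 16.0, 27.4 and 39.1 CPM in control and at 67.0, 94.7 and 136 CPM in distal libraries, with no overlap. The mean rose from 27.7 ± 6.65 CPM (SD, 8 libraries) to 98.3 ± 25.02 CPM (SD, 6 libraries), a log2 fold change of 1.83 ± 0.20 (SE; adjusted p = 2.7e-06 with edgeR). Its log2 fold change was number 142 from the top among the 11757 tested genes. Gpx4 has 58.8% GC, above 94.2% of tested genes, and with the trend removed its log2 fold change was 0.76 ± 0.15 (SE), still past the threshold (edgeR adjusted p = 0.0021). With counts summed per set it was 1.99 ± 0.30 (SE; adjusted p = 0.0022 with edgeR), but with sums per set and the trend removed it was at 0.75, short of the threshold (edgeR adjusted p = 0.10). Leaving out any 1 library gave 1.74 to 2.05. The processed pseudogenes Gpx4-ps1 and Gpx4-ps2 had 5 and 124 counts over all libraries, and the sources used here do not say how reads that match several genes were counted, so the Gpx4 level is uncertain to that extent.

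Txnrd1 and Gpx4 exchanged places per kilobase of exon, an order that rests on exon lengths of 7086 and 1724 bases. In CPM they did not, with distal means of 105 and 98.3. There Txnrd1 lay above Gpx4 in distal replicates 3, 4 and 5, and below it in distal replicates 1, 2 and 6. Per kilobase of exon, Txnrd1 lay above Gpx4 in all 8 control libraries (23.2 to 41.4 against 9.29 to 22.7 CPM per kb), and Gpx4 lay above Txnrd1 in all 6 distal libraries (38.9 to 78.9 against 10 to 19.3 CPM per kb). With the trend removed the fold change of each gene kept its direction, but the exchange per kilobase was not computed. Gpx4 still did not overlap (log2 CPM at most 5.49 in control, at least 5.65 in distal libraries). Txnrd1 did, with distal replicates 3 and 4 (7.18 and 7.23) above control replicate 2 (7.17).

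The last pair of targets did not pass. Nqo1, a quinone reductase often used as a readout of NRF2 activity (chromosome 8, 107388225 to 107403206, minus strand), stood at 1.91, 6.89 and 16.6 CPM in control and at 1.41, 5.001 and 8.44 CPM in distal libraries. Of the distal libraries 5 lay within the control range and 1 below it. With 5 to 111 counts per library it was the least abundant by count and had a coefficient of variation of 63.4% in control and 46.4% in distal libraries, the largest of the 10 in each region. Its log2 fold change was -0.77 ± 0.48 (SE; adjusted p = 0.19 with edgeR), and -0.27 ± 0.48 (SE; adjusted p = 0.74 with edgeR) with the trend removed. On counts summed per set Nqo1 was at -0.28 (edgeR adjusted p = 0.74), and without CTRL1 at 0.34, the opposite sign (edgeR adjusted p = 0.77).

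Hmox1 encodes heme oxygenase 1, which breaks down heme (chromosome 8, 75093621 to 75100589, plus strand). It stood at 10.4, 24.4 and 64.5 CPM in control and at 29.8, 45.4 and 61.1 CPM in distal libraries. All distal values lay inside the control range, whose top was set by control replicates 8 and 4. The means were 29.7 ± 18.1 CPM (SD, 8 libraries) and 45.5 ± 12.5 CPM (SD, 6 libraries), a log2 fold change of 0.61 ± 0.33 (SE; adjusted p = 0.13 with edgeR). With all libraries Hmox1 passed under upper-quartile scaling (0.80, edgeR adjusted p = 0.047). Without control replicate 8 it was 0.99 and passed (edgeR adjusted p = 0.0083), without CTRL2 0.94 (edgeR adjusted p = 0.016), and without distal replicate 4 it was 0.83 and passed (edgeR adjusted p = 0.047). With the replicate number as a block, a fit that also drops CTRL2, Hmox1 was at 1.04 (edgeR adjusted p = 0.013), close to the 0.94 without CTRL2 and no block. From counts summed per set it was at 0.60 (edgeR adjusted p = 0.14), and with the trend removed it was at 0.05 ± 0.33 (SE; adjusted p = 0.94 with edgeR).

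**Figure D3:**
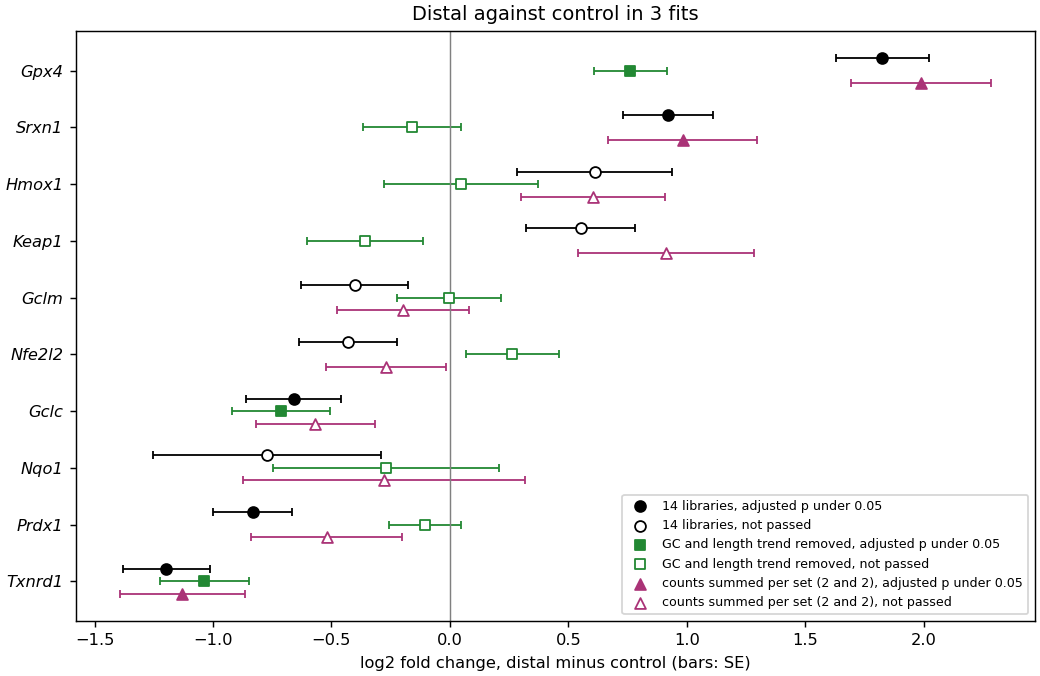
Log2 fold change of each gene, distal minus control, with its SE in 3 edgeR fits: 14 libraries (black circles), the same with the GC and length trend removed (green squares), and counts summed into 2 control and 2 distal sets (purple triangles). Filled symbols passed an adjusted p under 0.05. Gpx4 and Txnrd1 passed in all 3 fits, with Gpx4 at 1.83, 0.76 and 1.99 and Txnrd1 at -1.20, -1.04 and -1.13.

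**Figure D4:**
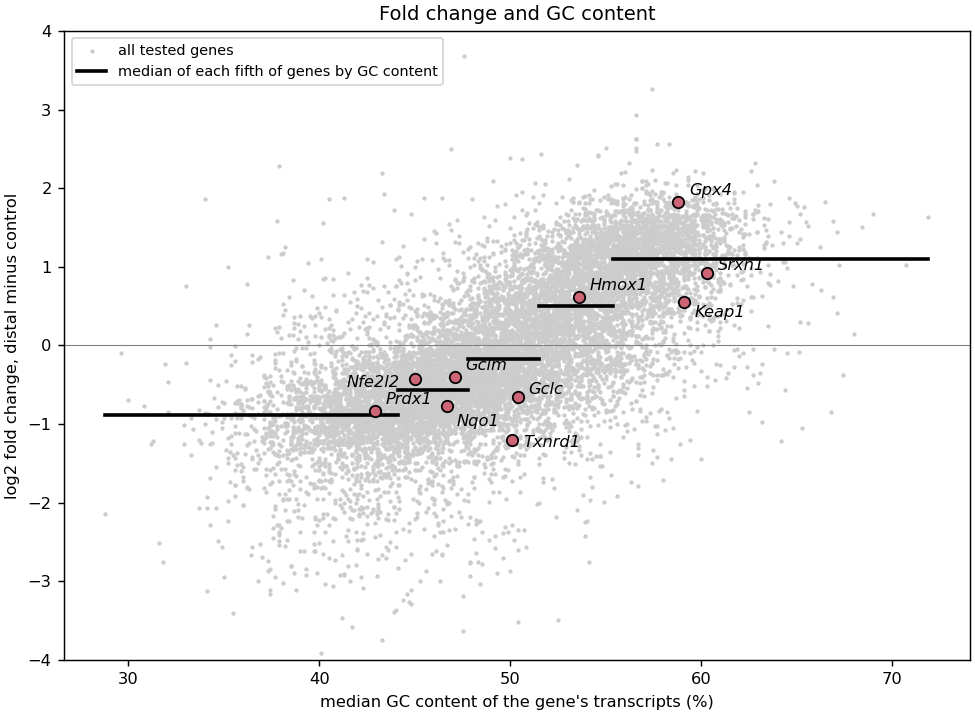
Log2 fold change (distal minus control) against the median GC content of each gene's transcripts for all tested genes with a GC value (grey), with 6 genes outside the axis limits of -4 and 4. Black lines are the medians of 5 equal bins of genes by GC content, from -0.89 to 1.1. Of the 10 genes (red), Txnrd1 lies farthest below the line of its bin and Gpx4 farthest above. Keap1 and Gclc also lie below their lines, and the others lie nearer to theirs.

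The position of the genes along GC content was unequal. Prdx1 fell in the lowest bin, whose median log2 fold change was -0.89. Nfe2l2, Nqo1 and Gclm fell in the next (median -0.57), Gclc and Txnrd1 in the third (-0.17), Hmox1 in the fourth (0.50), and Keap1, Srxn1 and Gpx4 in the highest (1.1). In each of the last 3 the sign of the plain fold change was positive, and with the trend removed only Gpx4 kept it.

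Levels were compared between genes as CPM per kilobase of exon. In control cells Prdx1 led at 870 ± 179 CPM per kb (SD, 8 libraries), above every other member in every library. Gclc (38.9), Nfe2l2 (33.9) and Txnrd1 (33.9) followed, and neighbours among these 3 did not differ beyond their spread, with Gclc above Nfe2l2 in 6 of 8 and Nfe2l2 above Txnrd1 in 4 of 8 libraries. Hmox1 (17.0) and Gpx4 (16.0) came next and also overlapped, followed by Gclm (7.80), Srxn1 (6.15), Nqo1 (5.34) and Keap1 (3.17). In distal cells Prdx1 stayed first at 489 ± 96.5 CPM per kb (SD, 6 libraries) and Gpx4 came second at 57.0. Hmox1 (25.97), Nfe2l2 (25.2) and Gclc (24.6) lay within each other's spread, then Txnrd1 (14.8), Srxn1 (11.7), Gclm (5.90), Keap1 (4.65) and Nqo1 (3.14).

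Among the members, profiles over the 14 libraries were compared by the root-mean-square difference of log2 CPM after centring each gene on its own mean. Nfe2l2 and Gclc were most alike (0.41), followed by Gclm with Prdx1 and Gclc with Txnrd1 (both 0.46), and Txnrd1 and Gpx4 were farthest apart (1.56). Among the 9113 other genes with average log2 CPM of at least 3, those nearest to Nfe2l2 were Smim15 (0.194), 2900097C17Rik (0.199) and Dimt1 (0.22), against a median of 0.699 over these genes. For 2900097C17Rik the difference was 0.789 with the trend removed. Those nearest to Nqo1 among 9114 genes were Gm12669 (0.43), Dock8 (0.481) and Cyp2j6 (0.554), against a median of 1.04. These are descriptions over libraries that share depth and GC trend within each region.

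Inside a region the sets were compared in a model with 4 sets. None of the 10 genes, and none of the 11757 tested, passed between CTRL2 and CTRL1 or between MEM2 and MEM1 with edgeR. At an unadjusted p under 0.05 there were 969 genes (8.24%) between the control sets, Keap1 and Prdx1 among them, and 921 (7.83%) between the distal sets, with Gpx4 among them. Keap1 was at -0.74 ± 0.34 (SE; adjusted p = 0.60 with edgeR) and Prdx1 at -0.61 ± 0.22 (SE; adjusted p = 0.51 with edgeR) in CTRL2 minus CTRL1. Gpx4 was at -0.59 ± 0.28 (SE; adjusted p = 0.63 with edgeR) in MEM2 minus MEM1, with set means of 126.5 CPM in MEM1 and 84.2 CPM in MEM2. Both distal means lay above the 26.1 and 32.3 CPM of the control sets. For Txnrd1 the set means were 226 and 283 CPM in CTRL1 and CTRL2, and 93.4 and 110.2 CPM in MEM1 and MEM2.

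Around the 10 genes, 8 lists of related genes were read against the same background of 24.3% higher and 24.1% lower, which is 10.4% and 8.57% with the trend removed and 18.8% and 11.7% from counts summed per set. Of 12 NRF2 partners, rivals and turnover genes 2 rose, 3 fell and the median log2 fold change was -0.06, with 1 and 2 after removal of the trend and 2 and 1 from summed counts. The small MAF partner Mafk rose from 5.35 ± 1.62 CPM (SD, 8 libraries) to 19.6 ± 6.15 CPM (SD, 6 libraries), without overlap, at 1.86 ± 0.29 (SE; adjusted p = 5.5e-05 with edgeR) and at 1.16 with the trend removed, still past the threshold. With sums per set and the trend removed Mafk was at 1.15 and did not pass (edgeR adjusted p = 0.11). Mafg, another small MAF, was at 0.68 (edgeR adjusted p = 0.005) but at -0.44 with the trend removed. Cul3, the scaffold of the ligase that KEAP1 serves, fell by 1.11 and the coactivator gene Crebbp fell by 0.78 on the log2 scale. Once the trend was removed, Crebbp was at -0.69 and passed, and Cul3 was at -0.28 and did not. From summed counts Crebbp was at -0.71 and missed the threshold (edgeR adjusted p = 0.05).

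Of 22 tested genes among 25 other NRF2 targets 10 rose and 6 fell (median 0.36), against 4 and 2 after removal of the trend and 8 and 2 from summed counts. The ferritin light chain gene Ftl1 rose from 196 ± 82.6 CPM (SD, 8 libraries) to 699 ± 67.7 CPM (SD, 6 libraries), at 1.83 ± 0.22 (SE; adjusted p = 7e-06 with edgeR). The epoxide hydrolase gene Ephx1 rose by 1.29, the transketolase gene Tkt by 1.16 and the glutathione transferase gene Gstp1 by 1.26. With the trend removed Ftl1 (0.84), Ephx1 (0.91) and Tkt (0.39) passed and Gstp1 (0.44) did not. Ferritin and glutathione transferase genes have near-identical copies that can share reads, so Ftl1 and Gstp1 are uncertain.

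Of 16 peroxiredoxin, thioredoxin and glutaredoxin genes 5 rose and 6 fell (median -0.21), with 2 and 2 after removal of the trend and 4 and 2 from summed counts. Mitochondrial thioredoxin, Txn2, rose from 74.3 ± 18.1 CPM (SD, 8 libraries) to 208 ± 28.4 CPM (SD, 6 libraries), at 1.48 ± 0.17 (SE; adjusted p = 3.6e-06 with edgeR). Its reductase Txnrd2 rose by 1.28, opposite in sign to cytosolic Txnrd1, and the cytosolic peroxiredoxin Prdx2 rose by 0.99, opposite in sign to Prdx1. Prdx2-ps1, named as a pseudogene of Prdx2, was also among the tested genes and stood at 1.35. How reads that match several genes were counted is not given, so the Prdx2 level is uncertain. Glrx3, an iron-sulfur glutaredoxin, fell by 1.02 on the log2 scale. After removal of that trend Txn2 (1.04), Prdx2 (0.76) and Glrx3 (-0.56) passed and Txnrd2 (0.48) did not.

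Of 7 tested superoxide dismutase, catalase and glutathione peroxidase genes 4 rose and 1 fell (median 0.58), with 2 and 2 after removal of the trend and 3 and 1 from summed counts. Gpx1, the main cytosolic glutathione peroxidase, rose from 62.1 ± 12.9 CPM (SD, 8 libraries) to 193 ± 34.2 CPM (SD, 6 libraries), at 1.64 ± 0.16 (SE; adjusted p = 1.9e-06 with edgeR). Cat, the peroxisomal catalase, fell from 319.9 ± 71.4 CPM (SD, 8 libraries) to 139 ± 51.4 CPM (SD, 6 libraries), at -1.20 ± 0.21 (SE; adjusted p = 0.00017 with edgeR), and both passed with the trend removed at 0.71 and -1.42. The copper chaperone gene Ccs rose by 1.49 and Sod1, cytosolic superoxide dismutase, by 0.58. Once the trend was removed, Sod1 (0.66) passed and Ccs (0.61) did not.

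Of 9 tested genes of glutathione synthesis and recycling 3 rose and 1 fell (median 0.15), with 2 and 0 after removal of the trend and 2 and 1 from summed counts. Glutathione synthetase, Gss, which acts after the ligase of Gclc and Gclm, rose by 1.52 ± 0.27 (SE; adjusted p = 0.00024 with edgeR) and stood at 0.90 with the trend removed, still past the threshold. With sums per set and the trend removed Gss was at 0.89 and did not pass (edgeR adjusted p = 0.13). Hagh, a glyoxalase that returns glutathione from its lactoyl ester, rose by 0.75. The 2 chains of the cystine importer went apart: Slc3a2 rose by 0.54 and Slc7a11 fell by 1.37 on the log2 scale. Neither passed with the trend removed, at -0.26 and -0.44, and Hagh was at 0.04. From summed counts Slc3a2 was at 0.69 and missed the threshold (edgeR adjusted p = 0.059).

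Selenoprotein synthesis matters to Txnrd1 and Gpx4 alike, and 3 of its 7 genes rose and 1 fell (median -0.15), with 2 and 1 after the trend was removed and 3 and 0 from summed counts. Trnau1ap, which binds the selenocysteine transfer RNA, rose by 1.16, the elongation factor gene Eefsec by 1.41 and Sephs2, which makes the selenium donor, by 0.75. Pstk, a kinase in the making of selenocysteine transfer RNA, stood at -0.49, just past the threshold (edgeR adjusted p = 0.048). That call was lost in 11 of 14 fits that left 1 library out, with -0.31 without distal replicate 6, and from summed counts Pstk was at -0.34 (edgeR adjusted p = 0.34). After removal of that trend Trnau1ap (0.56) and Sephs2 (0.53) passed, while Eefsec (0.46) and Pstk (0.14) did not. The 1 gene lower in that fit was Secisbp2, at -1.03 (edgeR adjusted p = 0.013). Secisbp2 did not pass in the plain fit (-0.61, edgeR adjusted p = 0.068) or from summed counts (-0.53, edgeR adjusted p = 0.24).

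Of 11 tested heme and iron genes 4 rose and 3 fell (median 0.22), with 1 and 2 after removal of the trend and 2 and 2 from summed counts. The transferrin receptor gene Tfrc fell from 2663 ± 317 CPM (SD, 8 libraries) to 1136 ± 532 CPM (SD, 6 libraries), at -1.23, and stood at -0.42 with the trend removed, still past the threshold. With sums per set and the trend removed Tfrc was at -0.40 and did not pass (edgeR adjusted p = 0.28). Ireb2, an iron sensor that stabilises Tfrc messenger RNA, fell by 1.35 on the log2 scale, and Hmox2, the constitutive heme oxygenase, rose by 0.81, neither passing with the trend removed (-0.31 and 0.31). Of 11 tested ferroptosis genes 1 rose and 5 fell (median -0.64), against none and 3 after removal of the trend and none and 2 from summed counts. Sat1, a polyamine acetyltransferase, fell by 0.64 on the log2 scale and stood at 0.02 with the trend removed and at -0.52 from summed counts, where it did not pass (edgeR adjusted p = 0.14). The lists share genes, namely Slc7a11, Slc3a2, Gsr, Blvrb, Fth1, Ftl1, Txn1 and Tfrc, and a shared gene counts in each list that holds it.

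**Figure D5:**
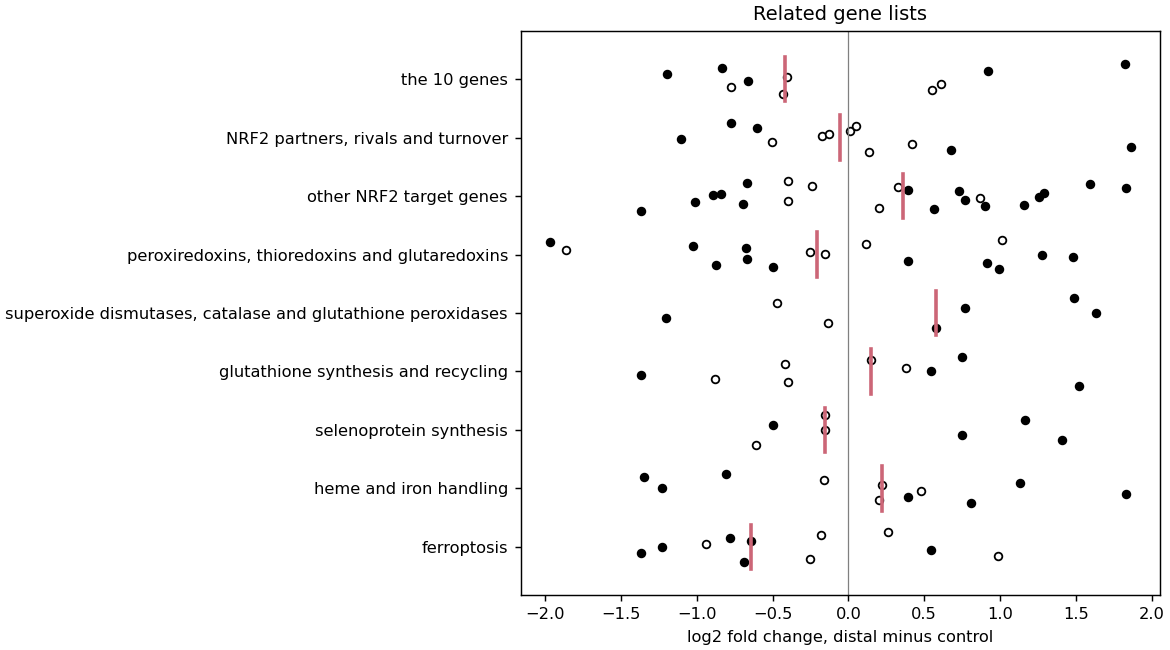
Log2 fold change (distal minus control, 14 libraries) of every tested gene in the 10 genes and 8 related lists. Filled points passed an adjusted p under 0.05 with edgeR, open points did not, and the red line is the median of the list. Medians run from -0.64 in the ferroptosis list to 0.58 in the list of dismutases, catalase and peroxidases, and every list holds genes on both sides of 0.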

How the data were processed

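Smart-seq2 cDNA and Nextera XT libraries of small pools of sorted, cultured cells were sequenced, per the labels' protocols. The authors deposited raw counts per gene symbol, and the submitters' processing notes name HISAT2, featureCounts and the builds mm10 and GRCm38. Strand setting and multi-mapping rules are not given in the sources used here. The tests used edgeR 4.0.16 under R 4.3.3 (filter by filterByExpr, TMM scaling, robust quasi-likelihood F test, Benjamini-Hochberg over all tested genes, threshold 0.05). SE was derived from the fold change and its F statistic, and CPM uses TMM-scaled totals. Positions, exon lengths, transcript GC and lengths came from GENCODE M21 (GRCm38), with a GC value for 99.1% of tested genes. The trend removal fitted each library's deviation in log2 CPM (prior count 2) from the gene mean on GC content and log2 length (natural splines, 4 df each), entered as offsets. The code was tested on simulated data. Chi-square over its degrees of freedom was 6.83 to 40 in the 23 pairs of libraries within sets, above sampling noise. No libraries were merged, though this value cannot tell technical from biological replicates.

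The 10 genes and the lists were chosen with earlier results of these data known. The genes named are the 10, up to 4 genes with the smallest p in each list, and the 3 profiles nearest to Nfe2l2 and to Nqo1. Alternatives were other scalings, DESeq2 1.42.0, limma-voom (limma 3.58.1), other filters, sums per set, thinned counts, the replicate block, and leaving out each set and library. Libraries over 4000000 counts only, and the settings for profile likeness, were chosen after seeing the data. Counts carry no molecular identifiers, so counting error understates the error of a library.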

Additional observations from a re-analysis of the deposited data

How the results depend on the processing

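All 14 fits that left out 1 library kept Txnrd1 and Prdx1 lower and Gpx4 and Srxn1 higher past the threshold. Over these fits 2 to 4 of the 10 genes were higher and 2 to 4 lower, and 2695 to 3207 of all genes were higher and 2105 to 2724 lower. Of the 10 genes, 4 were higher with upper-quartile scaling and 1 without MEM2. With the trend removed 1 was higher (1 with the replicate block too, 0 on sums per set too). Lower were 1 on sums per set, 1 with the trend also removed, 1 without CTRL1 and 0 in libraries over 4000000 counts.

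Over all genes, 2853 higher and 2828 lower became 1209 and 999 with the trend removed, 125 and 188 on sums per set with the trend removed, 1040 and 960 with block and trend removal, 1195 and 1072 without CTRL1, and 854 and 389 in libraries over 4000000 counts. Lower were 1376 on sums per set and 1649 without MEM1. The causes were not tested.

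Signs turned in these settings. With the trend removed the log2 fold change was 0.26 for Nfe2l2, -0.36 for Keap1, -0.16 for Srxn1, -0.44 for Mafg, -0.26 for Slc3a2, 0.14 for Pstk and 0.015 for Sat1. On sums per set with the trend removed it was 0.33 for Nfe2l2, -0.14 for Keap1, 0.11 for Nqo1, -0.10 for Hmox1, 0.043 for Gclm, -0.23 for Srxn1, 0.13 for Prdx1, -0.49 for Mafg, -0.27 for Slc3a2, 0.20 for Pstk, 0.022 for Ireb2 and 0.039 for Sat1. With the replicate block and the trend removed it was 0.27 for Nfe2l2, -0.53 for Keap1, 0.0051 for Gclm, -0.18 for Srxn1, -0.37 for Mafg, -0.0069 for Hagh, -0.27 for Slc3a2, 0.19 for Pstk and 0.052 for Sat1. Without CTRL1 Nqo1 was at 0.34.

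The Keap1 to Nfe2l2 difference was -0.61 with the trend removed. Without CTRL1 it was 1.49 (exact permutation, adjusted p = 0.071) and with the replicate block 0.84 (exact sign-flip permutation, adjusted p = 0.062). In both, the unadjusted p is the smallest the design can give. After adjustment it could pass only if the other ratio also had an unadjusted p under 0.05. Neither fit is therefore read as a loss of the call. The block fits also drop CTRL2, whose numbers have no distal partner. Leaving out 1 library gave 0.89 to 1.14, and -0.51 to -0.17 for Gclc to Gclm. Same-numbered libraries deviated together little or not at all (correlations of -0.017 to 0.11, 2 of 6 best with their own number). The labels give no pairing, and such correlations cannot tell whether same-numbered libraries share an origin. With the block 3 genes were higher and 3 lower. Nqo1 is limited by low counts and by its spread between libraries.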

Other observations

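Txnrd1 and Gpx4 both encode selenoproteins, so a list of selenoprotein genes was looked at after these values were seen. No test of the list was made. It includes Txnrd1 and Gpx4, so the counts and medians below also hold the 2 genes that prompted it. Of 24 listed genes 19 were tested, 8 rose, 3 fell and the median log2 fold change was 0.55, and with the GC and length trend removed 4 rose and 2 fell (median 0.35). From summed counts 6 rose and 2 fell. Over all tested genes 24.3% rose and 24.1% fell, 10.4% and 8.57% with the trend removed, and 18.8% and 11.7% from summed counts. The 3 that fell were Txnrd1, Selenoi, an enzyme of phospholipid synthesis (-1.04 ± 0.20, SE; edgeR adjusted p = 0.00036), and Selenot, of the endoplasmic reticulum (-0.50 ± 0.20, SE; edgeR adjusted p = 0.044). After removal of the trend Selenot turned to 0.34 (edgeR adjusted p = 0.086) and Selenoi was at -0.34 (edgeR adjusted p = 0.26), and from summed counts Selenot was at -0.37 (edgeR adjusted p = 0.31). Among those that rose, Selenom went from 1.08 ± 0.662 CPM (SD, 8 libraries) to 5.24 ± 0.85 CPM (SD, 6 libraries) and Selenow from 4.32 to 10.6 CPM. Both rest on low counts, 2 to 26 per library for Selenom and 5 to 52 for Selenow, and Selenow overlapped between the regions. After removal of the trend they were at 1.31 and 0.35 and did not pass (edgeR adjusted p = 0.051 and 0.59). With the trend removed Gpx1, Gpx4, Sephs2 and Selenok (0.41) were called higher, and Txnrd1 and Selenoh (-0.66) lower. Selenop, a secreted selenium carrier, was at 1.67 ± 1.01 (SE) and did not pass (edgeR adjusted p = 0.18).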
